A study of Sus scrofa with 92 samples.

Results

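The lung of young pigs was compared with 8 other tissues by RNA sequencing. Lung libraries were chosen by their tissue label: 8 of the 92 libraries of the series, 1 each from Berkshire, Hampshire, Landrace, Large White and Piétrain, which are Western breeds, and from Bamei, Jinhua and Meishan, which are Chinese breeds. They were set against 75 libraries of heart, liver, kidney, ovary and subcutaneous adipose (9 each) and of spleen, psoas major and longissimus dorsi (10 each). The 9 mixtures of tissues took no part in the comparison. All pigs were 60 days old, and the labels name no treatment, no sex and no genetic change. Rongchang and Tibetan wild boar gave other tissues but no lung. Each breed and tissue had 1 library, so breeds were the replicates. The labels give no animal behind a library and do not mention pooling, so p-values measure the spread between these libraries.

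The alveoli, where gas is exchanged, are lined by 2 epithelial cell types. Flat type I cells form the thin barrier to the blood, and cuboidal type II cells make surfactant, the lipid and protein film that keeps alveoli from collapsing. The airways that lead to them carry club cells, which secrete secretoglobins, and ciliated cells, which move mucus. Macrophages that sit on the alveolar surface and a dense capillary bed make up much of the rest of the organ.

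Values are FPKM (fragments mapped to a transcript, relative to its length and to the mapped total), scaled here between libraries by median ratios. Differences are on the scale of log2(scaled FPKM + 1), which understates the change of low genes. A gene is called lung-higher when it exceeded each of the 8 other tissues with a log2 difference above 1 and an adjusted p below 0.05, taken from the largest of the 8 limma p-values. Total FPKM ran from 573842 to 1243578 in lung and from 519075 to 2196138 in the other tissues, and 13623 to 13819 genes reached 1 FPKM in a lung library against 10175 to 14561 elsewhere. Absolute depth is unknown, and relative depth of lung libraries lay between 0.809 and 1.10. Lung libraries resembled each other at Spearman correlations of 0.946 to 0.971 over genes. Of the other tissues, the ovary of Meishan stood apart: it held the highest value outside lung for 79 of the lung-higher genes, and its values are named below where the values of such a gene are described.

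The tissue label was met by the markers of lung cells. SFTPC, the surfactant protein made by type II cells alone, was at 2227, 2770 and 4375 scaled FPKM (lowest, median and highest of 8 lung libraries) and at no more than 6.12 in any of the 75 other libraries. SFTPB, which organises the surfactant film, was at 721.5, 968.9 and 1109 in lung and at most 2.08 elsewhere. AGER, a receptor that marks type I cells, was at 410.3, 509.9 and 592.8 in lung and at most 1.71 elsewhere. All lung libraries were above all other libraries for these 3 genes, as for 1.3% of all genes tested. The highest value outside lung was in the liver of Jinhua for each of the 3. The smallest log2 differences from another tissue were 10.60 ± 0.34 (SE) for SFTPC against adipose, 9.52 ± 0.145 for SFTPB against liver and 8.34 ± 0.12 for AGER against spleen, with limma adjusted p of 2.96e-39, 4.56e-60 and 4.56e-62. In whole tissue, more cells of a type and more RNA per cell cannot be told apart.

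SCGB1A1, the main secretory protein of club cells, was far less even. It was at 29.5, 771.6 and 1907 scaled FPKM in lung. Liver was the nearest tissue, at 0, 9.94 and 94.6, the highest of these in Meishan, and the groups overlapped because 2 lung libraries lay below that liver: Landrace at 29.5 and Berkshire at 46.2. Within each of the 8 breeds lung was the highest tissue, and the log2 difference from liver was 5.27 ± 0.52 (limma adjusted p 2.60e-13).

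**Figure D1:**
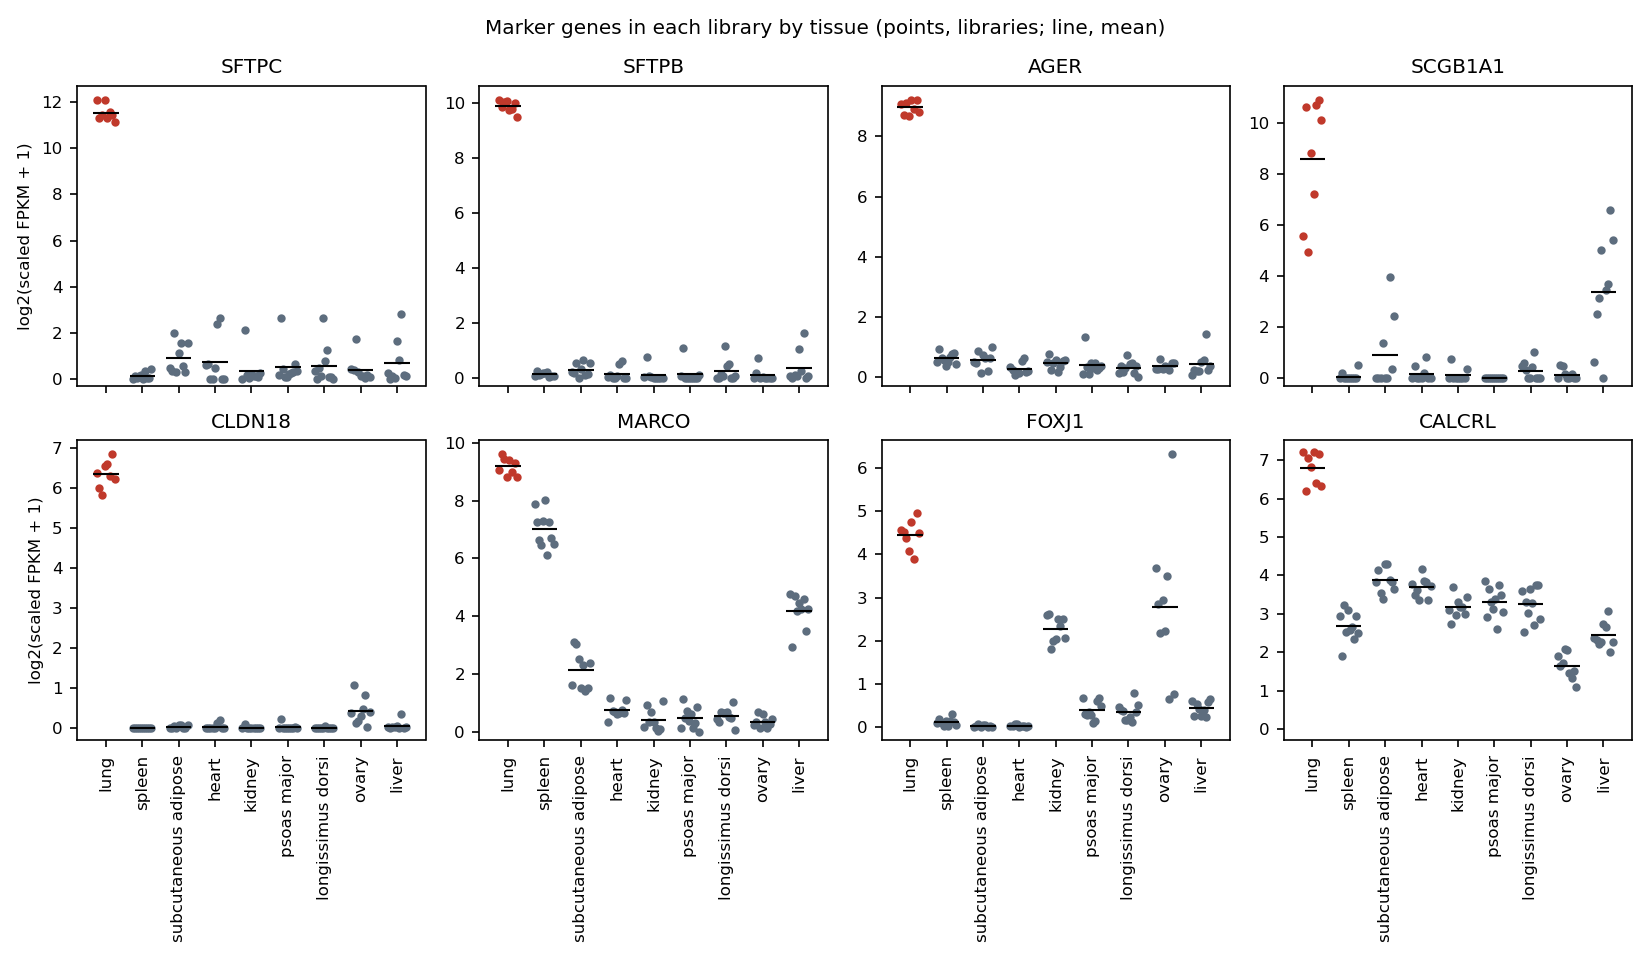
Level of 8 genes in each library, as log2(scaled FPKM + 1), by tissue; points are libraries, with lung in red, and lines are means. SFTPC, SFTPB, AGER and CLDN18 separate all lung libraries from all others, SCGB1A1 reaches from 29.5 to 1907 scaled FPKM in lung, and the Meishan ovary, at 78.7, lies above all lungs for FOXJ1.

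Over all genes, 291 of 17207 tested were lung-higher, which is 1.69%, and 2 were lower in lung than in each other tissue, which is 0.0116%. Of the 291, 185 carried a gene symbol and 199 were highest in lung within all 8 breeds. Their selection favours this, and the share of all genes highest in lung within all 8 breeds was not counted. All lung libraries lay above all others for 144 of the 291, a separation seen for 1.3% of all genes tested. Of the 291, a log2 difference above 2 from each tissue was reached by 89 and above 4 by 22. Without the Meishan ovary 306 genes were called, 287 of them among the 291. Against the mean of the other tissues, 2106 genes (12.2%) were higher and 1317 (7.65%) lower by a log2 difference above 1, so that 61.5% of these calls were higher in lung. On FPKM as deposited the split was 3537 to 819, or 81.2% higher, and the median difference over all genes was 0.38 in place of 0.03 on the log2 scale. After quantile normalization 54.9% of the calls were higher, with a median of -0.11, and with scaling factors from genes above 0 in every library 53.8%, with a median of -0.07.

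Lung differed least from spleen. There 2065 genes were higher in lung (12%) and 792 lower (4.6%), and the median Spearman correlation between lung and spleen libraries was 0.835. Subcutaneous adipose followed, with 2139 higher (12.4%), 1335 lower (7.76%) and a correlation of 0.814. Against kidney 2412 were higher (14%) and 1964 lower (11.4%), and against heart 2863 (16.6%) and 1796 (10.4%). Ovary was the only one of the 8 tissues with more genes above lung than below it: 2470 were higher in lung (14.4%) and 2677 lower (15.6%). Liver differed in 3418 higher (19.9%) and 2259 lower (13.1%). The 2 muscles had 3566 higher (20.7%) and 2119 lower (12.3%) in longissimus dorsi, and 3598 (20.9%) and 2048 (11.9%) in psoas major. Ovary was the nearest tissue for 109 of the 291 lung-higher genes, ahead of spleen with 49, adipose with 40 and kidney with 39. How often each tissue was nearest over all genes tested was not counted, so these numbers are descriptions.

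**Figure D2:**
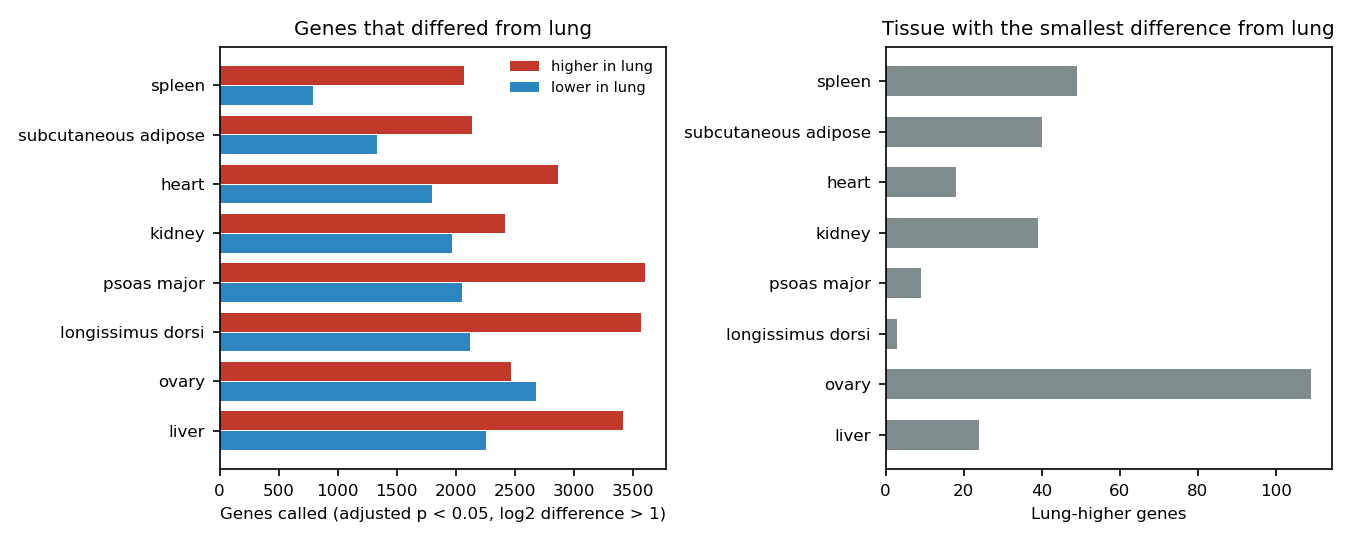
Left, number of genes higher or lower in lung than in each other tissue (adjusted p below 0.05 and log2 difference above 1); right, number of the 291 lung-higher genes for which each tissue had the smallest difference from lung. Spleen shows the fewest called genes, 2857 in both directions, and ovary is the nearest tissue for 109 lung-higher genes. The nearest tissue was not counted over all genes.

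Of 20 listed surfactant and type II cell genes, 13 were matched and tested, 7 were lung-higher and 13 were above the mean of the other tissues. A gene that passes the expression filter through lung alone had to differ, so the list counts here and below are descriptions and support nothing. Over all genes tested, 1.69% were lung-higher and 12.2% were above the mean of the other tissues. SLC34A2, the phosphate transporter of type II cells, was at 119.9, 176.4 and 208.0 scaled FPKM in lung and at 0.42, 2.82 and 22.4 in ovary, its nearest tissue, the highest in Meishan and the next at 10.7. NAPSA, the protease that trims surfactant protein precursors, was at 121.0, 158.1 and 219.2 in lung against 4.96, 8.38 and 11.8 in spleen. For both genes all lung libraries lay above all other libraries, as for 1.3% of all genes tested. SFTPD, a collectin that binds microbes, was at 104.7, 136.0 and 189.7 in lung and at most 1.67 elsewhere. PLA2G1B, a secreted phospholipase, was at 6.81, 14.0 and 26.0 in lung and at most 2.17 elsewhere.

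Other genes of surfactant handling were not lung-higher. ABCA3, the lipid pump of lamellar bodies, was at 11.5, 13.6 and 15.9 in lung and at 4.33, 7.59 and 10.17 in liver. Its log2 difference from liver, 0.77 ± 0.09, was below the limit of 1. LPCAT1, which remodels surfactant phosphatidylcholine, was at 33.7, 46.2 and 74.9 in lung and at 23.2, 24.9 and 30.7 in spleen, a log2 difference of 0.86 ± 0.12. CTSH, another protease of surfactant processing, was at 60.5, 120.0 and 224.6 in lung and at 171.2, 198.2 and 286.6 in spleen. Of 15 tested genes of lipid synthesis none was lung-higher, beside 1.69% of all genes tested. Above the mean of the other tissues were 6 of the 15, beside 12.2% of all genes. SCD, a fatty acid desaturase, was at 14.2, 31.5 and 44.1 in lung against 4.54, 66.9 and 1768 in adipose.

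Type I cell genes were lung-higher in 6 of 13 tested cases, beside 1.69% of all genes tested. AQP5, a water channel, was at 37.9, 47.1 and 63.5 scaled FPKM in lung against 0.33, 1.09 and 7.67 in adipose (log2 difference 4.33 ± 0.14). GPRC5A, an orphan receptor induced by retinoic acid, was at 45.2, 77.4 and 101.7 against 3.19, 10.1 and 17.7 in adipose. SPOCK2, a matrix proteoglycan, was at 30.2, 53.5 and 56.8 against 7.20, 10.3 and 13.9 in ovary. For these 3 genes all lung libraries lay above all other libraries, as for 1.3% of all genes tested. The caveolin genes CAV1 and CAV2, also abundant in type I cells, reached 355.3 and 96.7 in the median lung but 319.3 and 73.2 in the median adipose library, and neither was lung-higher. Among the epithelial junction genes, CLDN18, the claudin that seals the alveolar barrier, was at 55.5, 79.9 and 113.8 in lung and at most 1.14 elsewhere, a log2 difference of 5.91 ± 0.08 from ovary. It was the only one of 11 tested junction and keratin genes to be lung-higher, while 10 of the 11 were above the mean of the other tissues. EPCAM, an epithelial adhesion molecule, had a median of 58.6 in lung and 117.8 in kidney.

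Airway secretory genes were lung-higher in 8 of 13 tested cases, the largest share among the 31 lists, beside 1.69% of all genes tested. SCGB3A1 was at 102.8, 214.7 and 498.7 scaled FPKM in lung and at most 4.39 elsewhere, and SCGB3A2 at 64.5, 166.1 and 351.6 and at most 2.2. Both are secretoglobins of the airway lining. BPIFA1, an antimicrobial protein of airway fluid, was at 29.4, 99.8 and 393.9 in lung and at most 0.86 elsewhere, and its neighbour BPIFB1 at 6.12, 29.5 and 168.7 and at most 0.29. TFF3, a trefoil peptide that protects mucosa, was at 95.4, 195.0 and 353.0 against 0, 2.07 and 23.3 in ovary, the highest in Meishan and the next at 22.7. CLCA1, a product of goblet cells, was at 11.4, 18.6 and 55.8 and at most 0.73 elsewhere. All lung libraries lay above all others for these 6 genes, as for 1.3% of all genes tested. AGR2, also made by secretory cells, was at 2.36, 7.53 and 26.6 in lung and at 0.18, 3.91 and 18.4 in ovary and was not called.

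**Figure D3:**
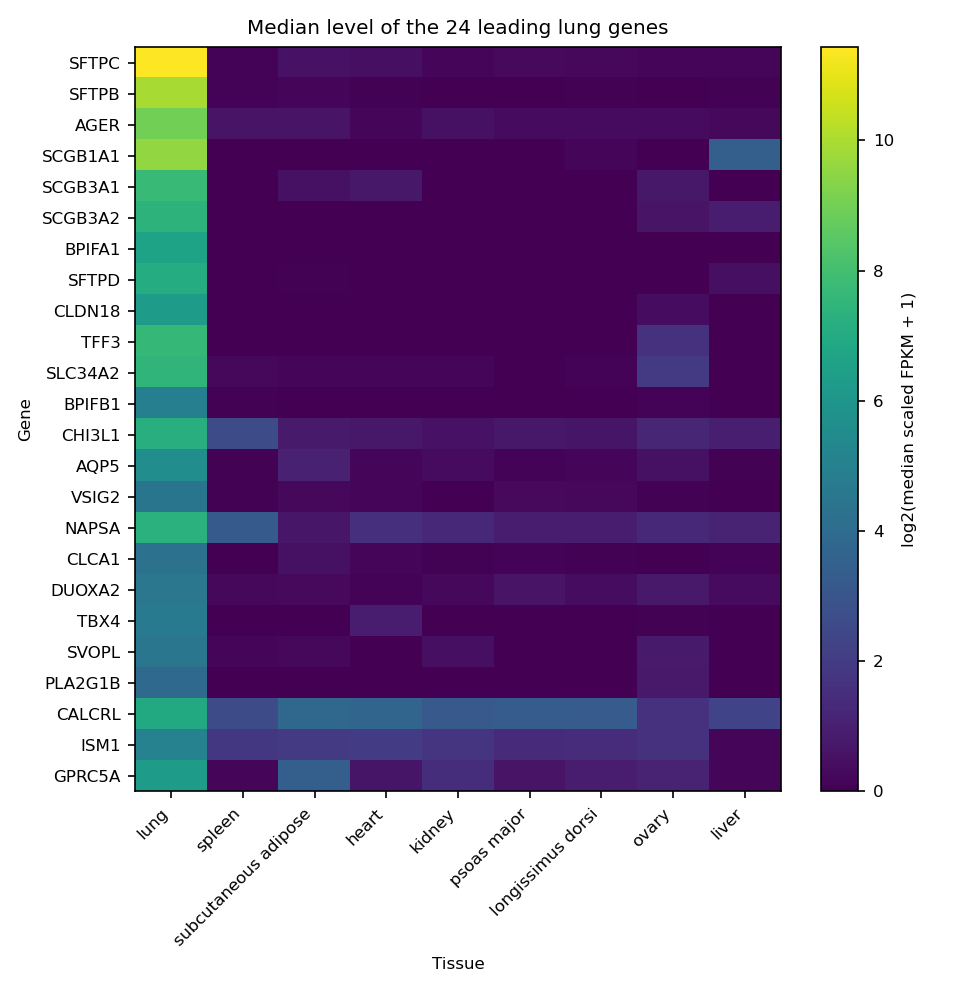
Median level, as log2(median scaled FPKM + 1), of the 24 lung-higher genes with a symbol and the largest smallest log2 difference, in each of 9 tissues. The lung column is the brightest in each row, with SFTPC at a median of 2770 scaled FPKM at the top and GPRC5A at 77.4 at the bottom.

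Of 15 tested genes of motile cilia, 14 were above the mean of the other tissues and 4 were lung-higher. Over all genes these shares were 12.2% and 1.69%. Their summed level was 78.9, 115.8 and 169.8 scaled FPKM in lung, 56.1, 79.9 and 111.4 in kidney, 21.2, 41.8 and 328.1 in ovary and at most 12.4 in the other tissues. FOXJ1, the transcription factor that switches on motile cilia, was at 13.9, 21.8 and 29.9 scaled FPKM in lung and at 0.58, 6.18 and 78.7 in ovary. The Meishan ovary alone accounted for the overlap: the other 8 ovaries reached at most 11.8. RSPH4A, a radial spoke protein, was at 3.85, 6.01 and 7.495 in lung, at 19.0 in the Meishan ovary and at most 2.16 in the other ovaries. TEKT2, a microtubule protein of cilia, was at 5.63 in that ovary, above its highest lung at 4.92, and CAPS was at 14.9 there, within its lung range of 8.49 to 20.8. Without that library the number of lung-higher ciliary genes was again 4. SPAG6, a protein of the central pair of the cilium, was at 2.82, 3.67 and 5.94 in lung, at 12.1 in the Meishan ovary and at 5.57 to 10.4 in the other ovaries. Of 8 listed basal and submucosal markers 4 were matched to a gene ID and tested. Of 8 listed neuroendocrine markers 3 were matched and 2 tested. None of these was lung-higher, beside 1.69% of all genes tested. CHGA, a granule protein of neuroendocrine cells, was at 0.05, 0.16 and 0.24 in lung. SYP, the other neuroendocrine gene tested, was at 0.44, 1.00 and 3.13 in lung and at 1.39, 2.07 and 3.38 in spleen, its nearest tissue. The log2 difference of SYP from the mean of the other tissues was 0.37 ± 0.08.

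Among 18 tested transcription factors of lung development, 3 were lung-higher and 12 were above the mean of the other tissues. The shares of all genes were 1.69% and 12.2%. TBX4, which patterns the lung mesenchyme, was at 18.4, 24.1 and 26.9 scaled FPKM in lung and at most 1.95 elsewhere, a log2 difference of 3.65 ± 0.09 from heart. TBX2, its relative, was at 36.0, 54.3 and 66.5 against 18.2, 23.1 and 31.5 in kidney. TBX5 was at 14.6, 22.4 and 24.6 in lung and at 9.53, 19.7 and 27.2 in heart, where it is a cardiac regulator, and was not called. EHF, an epithelial ETS factor, was at 15.4, 17.4 and 29.1 against 2.05, 8.10 and 28.4 in ovary. The highest was the Meishan ovary and the next value 13.7, below all lungs; the log2 difference was 1.17 with and 1.34 without that library. Without Landrace it was 0.99 and EHF was not called. FOXA2, a factor of endoderm, had a median of 9.50 in lung and 22.5 in liver, and GATA6, which also acts in heart, 12.5 in lung and 57.4 in heart. Of 16 tested genes of Notch, Wnt and other growth factor signals, BMP3, WNT3A and DLL4 were lung-higher; WNT3A was low, at 2.81, 3.65 and 5.03, but at most 0.63 elsewhere.

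Endothelial genes were lung-higher in 4 of 20 tested cases, and 15 were above the mean of the other tissues. Among all genes 1.69% and 12.2% were. CALCRL, the receptor of the vasodilators adrenomedullin and CGRP, was at 72.03, 122.6 and 147.3 scaled FPKM in lung against 9.51, 13.3 and 18.7 in adipose, a log2 difference of 2.93 ± 0.16. BMPR2 and ACVRL1, receptors of the BMP pathway known from inherited pulmonary hypertension and vascular malformations, had lung medians of 60.1 and 80.2 against 17.9 in heart and 38.2 in spleen. All lung libraries lay above all other libraries for these 3 genes, as for 1.3% of all genes tested. LYVE1, known from lymphatic vessels, was called at a log2 difference of 1.02 ± 0.18, with overlap (lung 32.8, 77.6 and 125.5; adipose 15.5, 29.9 and 91.5). Its call was lost without Berkshire, Landrace, Piétrain, Meishan or Rongchang (log2 differences 0.89 to 0.98). TMEM100, which acts with ACVRL1, lay just below the limit at 0.9996 with 132.0, 174.7 and 221.4 in lung and 50.3, 80.1 and 176.8 in adipose. PECAM1, a general endothelial marker, was at 102.3, 148.3 and 174.8 in lung and at 132.8, 179.1 and 266.7 in adipose. With scaling factors from genes above 0 the count of lung-higher endothelial genes fell to 2, and on FPKM as deposited it was 8.

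The 12 tested macrophage genes summed to 2084, 2515 and 3709 scaled FPKM in lung, 1934, 2763 and 3791 in spleen, 1955, 2938 and 3636 in adipose and 13900 or more in liver, where APOE, which liver cells also make, had a median of 17650. MARCO, a scavenger receptor of alveolar macrophages, was the only lung-higher gene of the 12: it was at 446.8, 585.1 and 777.2 scaled FPKM in lung, at 68.5, 127.2 and 256.6 in spleen and at no more than 26.1 in liver. The log2 difference from spleen was 2.15 ± 0.20 (limma adjusted p 1.08e-14), and all lung libraries lay above all others, as for 1.3% of all genes. C1QA, the complement component of tissue macrophages, had a median of 1248 in lung and 2101 in spleen, and CSF1R, the receptor that sustains macrophages, 44.9 and 102.0, though 10 of the 12 genes were above the mean of the other tissues. None of 12 lymphocyte genes was lung-higher and 8 were above that mean, beside 1.69% and 12.2% of all genes tested. CD3D, of the T cell receptor complex, was at 6.62, 9.37 and 30.9 in lung and at 33.1, 47.2 and 59.1 in spleen. Of 10 tested neutrophil and inflammation genes CXCL8, PTGS2 and S100A8 were lung-higher. S100A8, a calcium-binding protein of neutrophils, was the weakest of these, at 24.5, 42.8 and 132.3 against 11.05, 20.3 and 152.5 in spleen, with a limma adjusted p of 0.0267. Without Bamei its log2 difference fell from 1.03 to 0.69 and it was not called; it was also lost without Berkshire (0.92) and without Large White (0.89).

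Genes of defence at the airway surface were lung-higher in 8 of 17 tested cases, beside 1.69% of all genes tested. LYZ, PIGR and SFTPD were shared with the lists above. DUOX2, an oxidase that makes hydrogen peroxide, was at 6.47, 8.45 and 12.8 scaled FPKM in lung and at most 2.21 elsewhere, and DUOXA2, the factor it needs to mature, at 15.6, 21.9 and 37.0 and at most 2.29. The 2 genes lie side by side in the RefSeq annotation. CHI3L1, a chitinase-like protein, was at 42.1, 147.6 and 534.9 against 3.51, 5.25 and 13.2 in spleen. LYZ, lysozyme, was at 33.0, 364.7 and 621.8 in lung and at 26.0, 36.9 and 205.7 in spleen, with overlap. DEFB1, an epithelial defensin, was at 161.7 or more in each kidney and at 17.6 or less in each lung.

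Of 12 tested ion and water transport genes, SLC34A2, AQP5 and CFTR were lung-higher. CFTR, the chloride channel mutated in cystic fibrosis, was at 5.36, 8.11 and 9.77 scaled FPKM in lung and at most 3.13 elsewhere. The epithelial sodium channel subunits SCNN1A, SCNN1B and SCNN1G were not called, and their kidney medians were above those of lung. SCNN1A was at 14.1, 21.4 and 25.7 in lung and at 21.8, 31.5 and 39.2 in kidney. CYP4B1 and FMO2, enzymes that oxidise foreign compounds, were the lung-higher members of 13 tested, with lung medians of 153.8 and 36.3 against 61.6 and 14.2 in adipose. FMO2, at a log2 difference of 1.02, lost its call without Berkshire, Hampshire, Large White, Jinhua or Rongchang (0.96 to 0.99). In the renin-angiotensin list 0 of 12 were lung-higher, beside 1.69% of all genes. ACE, the angiotensin-converting enzyme of lung capillaries, was at 49.9, 61.1 and 94.7 in lung and at 47.8, 67.3 and 84.0 in kidney, and the groups overlapped. The median difference of that list from the mean of the other tissues was -0.21, and 0.18 on FPKM as deposited, where the median of all genes was 0.38.

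Of the fibroblast, smooth muscle and matrix genes tested, 11.8%, 11.1% and 5.56% were lung-higher, beside 1.69% of all genes. COL13A1, a collagen of alveolar fibroblasts, was at 8.69, 12.9 and 16.8 scaled FPKM in lung against 0.79, 1.29 and 2.42 in heart, and HHIP, an inhibitor of hedgehog signals, at 15.7, 31.2 and 37.0 against 7.46, 12.2 and 20.5 in liver. These were the 2 lung-higher genes of 17 tested for fibroblasts, and HHIP lost its call without Berkshire, Landrace or Meishan (0.96 to 0.99). ELN, elastin, was at 186.2, 504.4 and 671.1 in lung and at 277.7, 400.2 and 577.6 in adipose, which overlapped, with a log2 difference of 0.06 ± 0.21. Of the 18 matrix genes tested only LTBP2, which binds elastic fibres, was lung-higher, at 9.95, 17.0 and 21.6 against 1.92, 3.55 and 6.92 in adipose. PDE5A, the phosphodiesterase that degrades cGMP in vascular smooth muscle, was at 11.2, 16.1 and 18.7 against 2.35, 2.73 and 3.87 in kidney. All its lung libraries lay above all others, as for 1.3% of all genes tested.

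**Figure D4:**
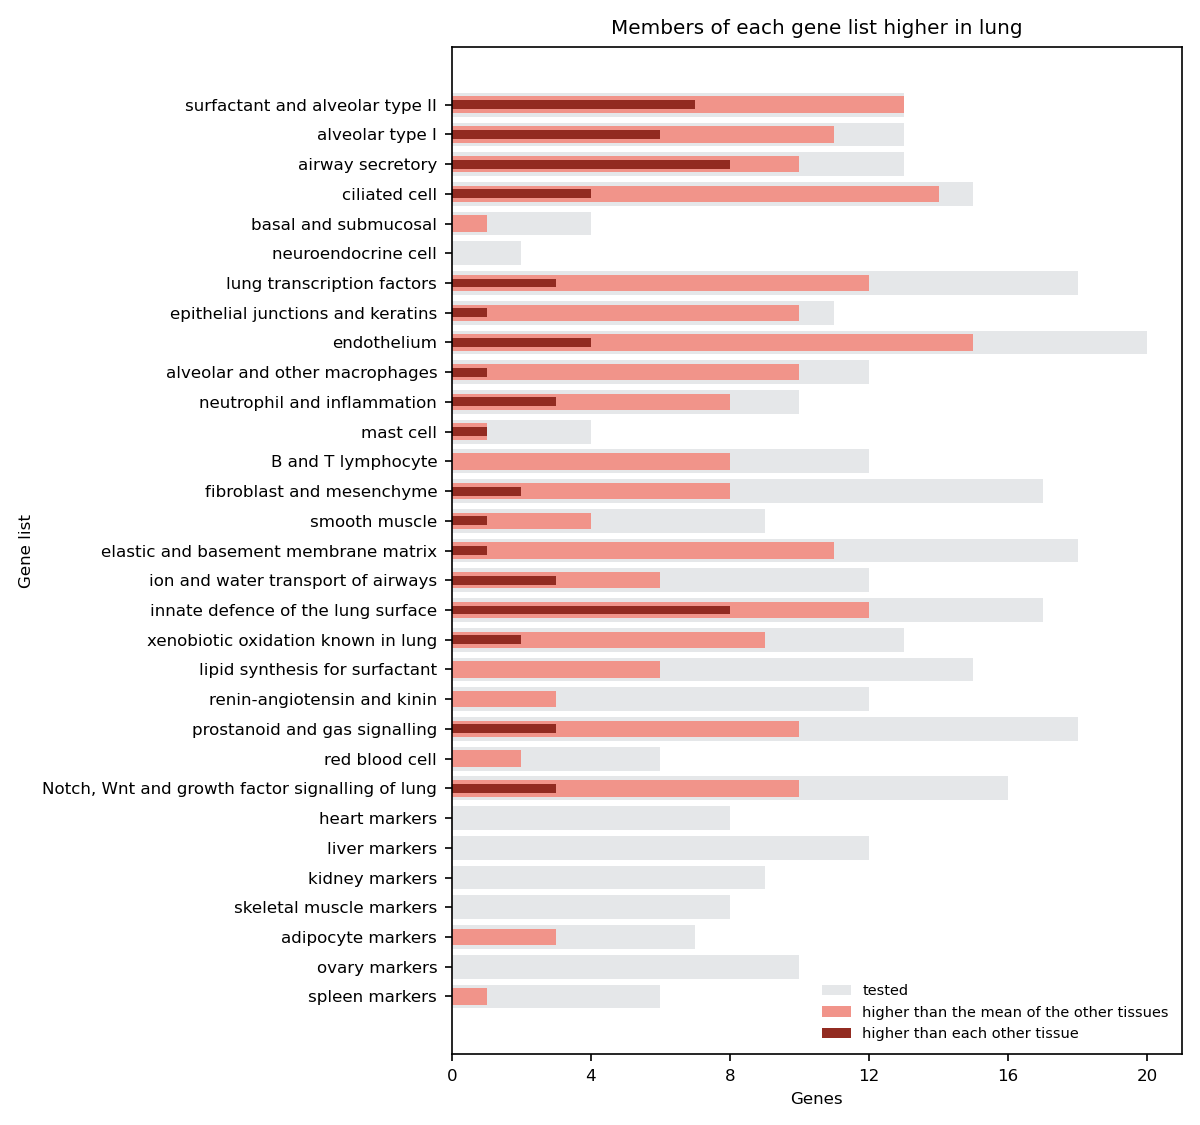
Number of tested genes in each of 31 lists (grey), those higher in lung than the mean of the other tissues (light red) and those higher than each other tissue (dark red). The airway secretory list has 8 of 13 genes in the dark bars, and the heart, liver, kidney, skeletal muscle and ovary lists have 0. Of all genes tested, 1.69% were higher than each other tissue.

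The median difference of a list from the mean of the other tissues, on the log2 scale, can be set beside 0.03 for all genes tested. It was 4.29 for the airway secretory list, 3.83 for type II cells, 2.44 for type I cells, 2.24 for junctions, 2.19 for defence and 1.62 for both cilia and endothelium. For immune cells it was 1.91 in the macrophage, 1.87 in the neutrophil and 1.15 in the lymphocyte list. It was lower for matrix (1.33), fibroblasts (0.80) and lipid synthesis (0.52). Lung-higher genes also numbered 1 of 4 tested in the mast cell list (FCER1A, a subunit of the IgE receptor, lost without Hampshire at 0.99), 1 of 9 in the smooth muscle list (HHIP), 3 of 18 in the prostanoid and gas signalling list (PDE5A, PTGS2 and ALOX5) and 0 of 6 in the red blood cell list. The share of all genes tested that were lung-higher was 1.69%.

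Most markers of the other organs were near 0 in lung. The liver list, 12 of 12 genes lower than the mean of the other tissues, included AHSG at 0 in all 8 lungs and APOC3, an apolipoprotein, at no more than 0.11, while APOA1, another apolipoprotein, was at 16.7 to 41.6. Of the other marker lists, 5 of 8 heart, 3 of 9 kidney and 4 of 10 ovary genes were lower than that mean and none higher, beside 7.65% of all genes lower. Of 7 adipocyte genes 3 were lower and 3 higher (CFD, CIDEC and ADIG), and of 6 spleen genes none was lower and 1 higher (GPR82). All 8 skeletal muscle markers tested were lower than that mean; MYL1, a fast myosin light chain, was at most 0.14 in lung. PLIN1, the lipid droplet protein of adipocytes, was at 0.11, 0.31 and 1.19 in lung against 379.8, 489.5 and 658.3 in adipose. CFD, a complement factor best known from adipocytes, was at 468.7, 587.9 and 881.6 in lung and at 413.5, 461.5 and 551.6 in adipose, with a log2 difference of 0.38 ± 0.20 and a limma adjusted p of 0.272. The 2 genes lower in lung than in each other tissue had no symbol: ENSSSCG00000022970 was at 0.03, 0.10 and 0.16 in lung (log2 differences from -6.53 against liver to -1.43 against spleen, limma adjusted p 6.64e-07) and ENSSSCG00000028335 was at 0, 0.93 and 4.30, with 4 lungs at 0 (log2 differences from -4.25 against spleen to -1.67 against adipose, limma adjusted p 0.0301).

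The 291 lung-higher genes made up 1.72%, 3.17% and 4.001% of all scaled FPKM (lowest, median and highest of 8 lungs) and at most 0.308% in any other library. The genes were chosen for being high in lung, so this is a description. Landrace at 1.72% and Jinhua at 2.31% were the lowest lungs, and they also had the highest total FPKM, 1243578 and 1216009. Each share has the total scaled FPKM of its library as its denominator. The part of the total in the low shares of Landrace and Jinhua was not tested. ENSSSCG00000018657, a gene without a symbol, ran from 0 to 446700 scaled FPKM among the 8 lungs, with a median of 0. The part of single genes in the totals was not tested.

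Lung-higher genes had a larger median spread between breeds than all expressed genes, given here without a test. The median standard deviation over the 8 lungs was 0.38 on the log2 scale for the 156 lung-higher genes with a mean of 10 or more scaled FPKM and 0.17 for all 5372 genes at that level. SCGB1A1 spread most among the airway genes: it was at 46.2 in Berkshire, 1558 in Hampshire, 29.5 in Landrace, 450.0 in Large White, 145.8 in Piétrain, 1651 in Bamei, 1907 in Jinhua and 1093 in Meishan, a 64.7-fold range. The 3 Chinese lungs and Hampshire were the highest. SFTPC and SFTPB, by contrast, covered a range of 1.96-fold and 1.54-fold, with Meishan lowest and Berkshire highest for both. Piétrain was the highest lung for BPIFA1 (393.9) and BPIFB1 (168.7), and its OLFM4, a granule glycoprotein of neutrophils and crypt cells, was at 80.4 against 9.35 or less in the other 7. LYZ was lowest in Hampshire (33.0), Meishan (40.8) and Bamei (93.5) and at 267.3 to 621.8 in the others. LGALS13, a galectin, was at 17.8 in Berkshire, 27.6 in both Hampshire and Large White and 4.80 or less elsewhere. U12, a short spliceosomal RNA, was at 0 in 4 lungs and at 39.1 to 51.9 in the other 4. In Berkshire it also reached 51.8 in spleen and 45.3 in heart, and lung was its highest tissue in 3 of 8 breeds. The U12 call was lost without Piétrain, Jinhua or Meishan (log2 differences 1.57 to 1.64).

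The most even lung-higher genes at that level were FLVCR2, a haem and choline transporter family member, CD44, a hyaluronan receptor, NIBAN2, BMPR2 and SPTLC2, an enzyme of sphingolipid synthesis. Their highest lung was 1.27 to 1.39 times their lowest. NIBAN2, at a log2 difference of 1.08 from kidney, lost its call on FPKM as deposited (0.981). It was also lost with scaling factors from genes above 0 in every library (0.977). Bamei was the highest lung for 11 of the 12 lymphocyte genes tested, among them CD3D (30.9), CD8A (28.2) and MS4A1 (11.1), a B cell antigen; NKG7 was highest in Large White (80.1). Of 10 neutrophil and inflammation genes Jinhua was highest for 5 and Bamei for 4, with S100A8 at 132.3 and CXCL8 at 16.6 in Bamei. Of 12 macrophage genes Hampshire was highest for 7 and Bamei for 4. The share of all genes highest in each lung was not counted, and each breed is 1 library, so these counts are descriptions. HBB, a haemoglobin gene and a sign of blood, was at 392.1 in Bamei, the lowest of the 8, and at 4409 in Berkshire, the highest. Its part in the differences between lungs was not tested.

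**Figure D5:**
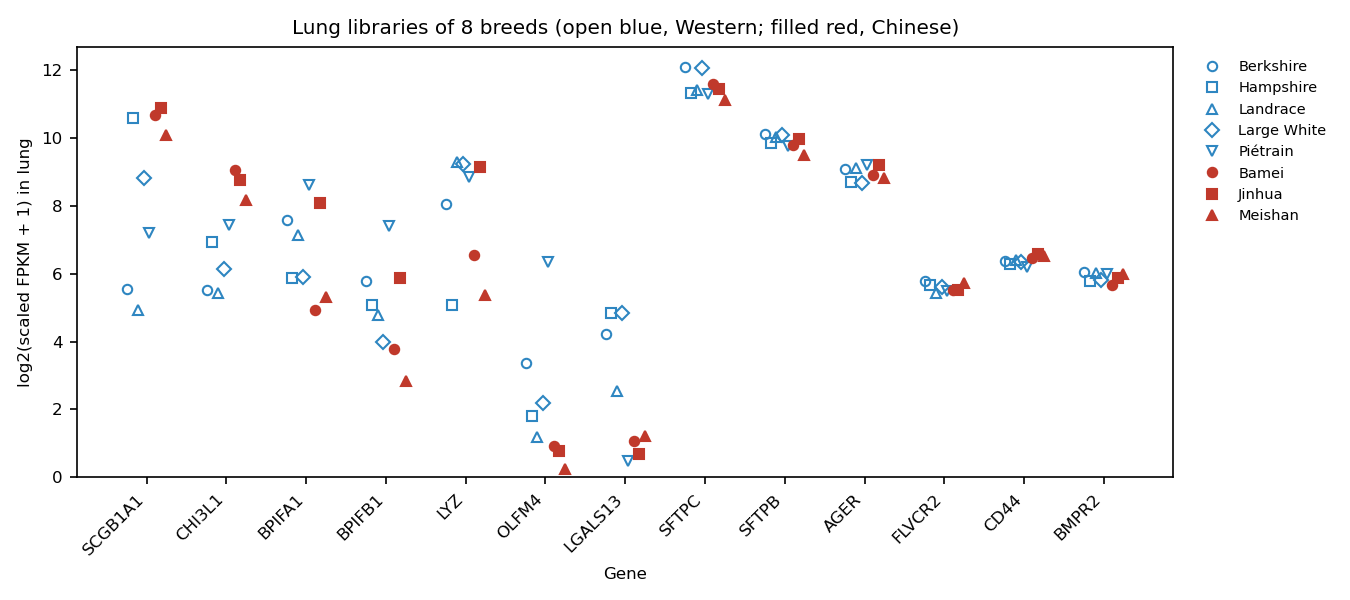
Level of 13 genes in the lung of each breed, as log2(scaled FPKM + 1); open blue symbols are Western and filled red symbols Chinese breeds. SCGB1A1 runs from 29.5 (Landrace) to 1907 (Jinhua) scaled FPKM and LYZ from 33.0 to 621.8, whereas FLVCR2, CD44 and BMPR2 stay within 1.27-fold to 1.32-fold ranges.

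Breed origin was tested within lung, 3 Chinese against 5 Western libraries, over 14034 genes. It called 23 genes (0.164%), 6 higher and 17 lower in Chinese breeds, and 1117 had an unadjusted p below 0.05. Levels here are scaled over all tissue libraries and differences over the 8 lungs alone. Among the 23 were 3 lung-higher genes, all without a symbol and all lower in Chinese breeds. ENSSSCG00000021965 was at 24.8 to 33.0 scaled FPKM in Western and 0.18 to 0.56 in Chinese lungs, a log2 difference of -4.69 ± 0.14 (limma adjusted p 4.19e-06). ENSSSCG00000024803 was at 119.6 to 532.6 and 0 to 2.04, a log2 difference of -7.18 ± 0.56 (adjusted p 0.00319), and the last of the 3 at 3.06 to 6.04 and 0.16 to 0.70. None of the named lung genes passed: SCGB1A1 differed by 3.15 ± 1.20 on the log2 scale with a limma adjusted p of 0.576, CHI3L1 by 2.38 ± 0.48 with 0.175, and SFTPC by -0.27 ± 0.23 with 0.875. CHI3L1 was at 286.0 to 534.9 in the 3 Chinese and 42.1 to 172.9 in the 5 Western lungs. How many of the 14034 genes separate the 2 groups in this way was not counted. Without Bamei the count of called genes was 11, and without Meishan it was 10.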

How the data were processed

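The authors deposited FPKM per gene and library. TopHat and Cufflinks 2.2.1 on Sscrofa10.2 are named in the submitters' processing notes; annotation release and options are not given in the sources used here. FPKM keep no read counts, so counting error is unknown. The 83 single-tissue libraries (25322 gene IDs) were scaled by median ratios over the 7520 genes at 1 FPKM or more in each, and the 17207 genes that reached 1 FPKM in 3 or more libraries were kept. log2(scaled FPKM + 1) was fitted with limma 3.58.1 (trend, robust; R 4.3.3, statmod 1.5.0), with tissue and, as block, breed. Adjusted p are two-sided, Benjamini-Hochberg over all genes. Each lung deviated from its tissue mean most like the other tissues of its own breed (8 of 8, correlation 0.228 to 0.441), so breed pairs the libraries. Origin (Western or Chinese, from general knowledge) was fitted on the 8 lungs alone. Tables were read in Python 3.11.15 (pandas 2.3.3, numpy 2.4.6), which also gave the rank correlations, and drawn with matplotlib 3.10.9. The fit was tested on simulated data.

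Members, gene lists (31; 346 of 486 symbols matched) and tests were chosen with earlier results of these data known. Named genes are the 4 markers, the 24 lung-higher genes with a symbol and the largest smallest difference, up to 5 lung-higher or up to 3 other members per list, and the 8 most and 5 least variable lung-higher genes at 10 scaled FPKM or more. Other genes named were chosen after their values were seen. Alternatives were FPKM as deposited, quantile normalization, other scaling genes, a pseudocount of 0.1, no filter or one at 5 FPKM, no block, 8 breeds, both muscles as 1 class, no trend or robust options, a log2 difference above 2, and leaving out the Meishan ovary or each breed. The planned search of promoters was not run, since no promoter sequence was used here.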

Additional observations from a re-analysis of the deposited data

Results flagged for a closer look

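Lung transcripts were present in the 9 mixtures, which no comparison used. On FPKM as deposited, SFTPC was at 185.2, 727.8 and 1550 in the mixtures (lowest, median and highest), against 4.58 at most in single tissues other than lung and 3097, 3719 and 5932 in lung. SFTPB had a median of 187.7 and AGER of 122.7 in the mixtures, against at most 1.55 and 1.28 in the other single tissues. All 9 mixtures were above all non-lung libraries for the 3 genes, among them that of Rongchang, a breed with no lung library, with 1091 for SFTPC. No library stood apart from the other 7 lungs among the 70 named lung-higher genes checked with Dixon's test for a gap at either end on the log2 scale.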

How the results depend on the processing

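The count of 291 lung-higher genes ran from 243 (scaling factors from genes above 0 in every library, all among the 291) to 426 (pseudocount 0.1), and was 89 when every log2 difference had to exceed 2. It was 391 on FPKM as deposited, 283 without the breed block (282 shared with the blocked fit), and 269 to 316 when 1 breed was left out. The 2 lung-lower genes became 0 at a log2 limit of 2, 5 with a pseudocount of 0.1 and 1 to 2 without 1 breed. Against the mean of the other tissues, 3537 genes were higher and 819 lower on FPKM as deposited, and 3445 were higher with a pseudocount of 0.1. On FPKM as deposited the genes higher and lower in lung were 5342 and 1100 against heart, 6648 and 1281 against liver, 7535 and 1028 against longissimus dorsi, and 7594 and 978 against psoas major. With a pseudocount of 0.1, 4449 were higher than in heart, 5353 than in liver, 5392 than in longissimus dorsi, 3421 than in adipose and 3166 than in spleen, where 1290 were lower. The origin count of 23 was 14 with a filter at 5 FPKM and 10 to 24 without 1 lung. The median lung share of lung-higher genes was 3.90% as deposited and 4.75% after quantile normalization. Median differences of the gene lists changed sign for the renin-angiotensin list (0.18 as deposited) and the spleen markers (-0.16 after quantile normalization against 0.16). Of 70 named lung-higher genes, 32 were called under all 22 alternatives, and none reversed in any. Without the breed block FOS, EGR1, DUSP1 and S100A8 were not called, and the block changed no other named call. Unknown depth leaves the error of values near 0 unmeasured, and the cause of these shifts was not tested.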

Other observations

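Genes named in this section were chosen after their values were seen. CYP7A1, the rate-limiting enzyme of bile acid synthesis in liver, was lung-higher: it was at 12.2, 22.9 and 35.9 scaled FPKM in lung and at 0.78, 9.74 and 40.0 in liver, with a log2 difference of 1.55 ± 0.26 (limma adjusted p 2.38e-06). Lung was the highest tissue in 7 of 8 breeds, and the liver of Meishan was above all lungs. The liver markers AHSG, FGG and CYP2E1 were at 0 in all 8 lungs, while TTR reached 0.17 and APOC3 0.11. The 12 tested genes of the liver list summed to 17.9, 28.3 and 42.4 in lung. The source of the CYP7A1 transcript in lung was not tested.

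Several immediate-early genes, which respond within minutes to stress or handling, were lung-higher in these libraries. FOS was at 31.9, 134.2 and 264.5 scaled FPKM in lung and at 20.2, 53.1 and 91.7 in adipose, and psoas major of Rongchang reached 504.5. EGR1 was at 56.0, 118.5 and 186.3 and JUNB at 58.9, 101.5 and 220.1, and both were lung-higher with FOS, EGR2 and DUSP1. EGR1 reached 422.9 in psoas major and DUSP1 480.4 in longissimus dorsi of Rongchang, above all lungs. Without the breed block FOS, EGR1 and DUSP1 were not called (log2 differences 1.26, 1.39 and 0.99), and FOS was also lost without Hampshire or Landrace (1.31 and 1.42) and DUSP1 without Large White or Jinhua (0.98 and 0.97). ATF3, EGR3, IER2, KLF4 and MYC were not: ATF3 was at 5.33, 8.63 and 16.8 in lung and at 134.7 in the median longissimus dorsi. The time between death and sampling is not in the labels, and its part in these values was not tested.

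Other abundant lung-higher genes were EPAS1, a hypoxia-inducible transcription factor of endothelium, at 246.9, 323.7 and 444.1 scaled FPKM against 67.5, 109.0 and 148.1 in adipose, NPC2, a cholesterol-binding protein of lysosomes, at 298.6, 357.6 and 564.5 against 127.0, 141.5 and 197.5 in adipose, and CD9, a tetraspanin, at 183.7, 224.3 and 264.5 against 43.0, 67.1 and 101.4 in adipose and 119.9 in the Meishan ovary. C3AR1, the receptor of the complement fragment C3a, was at 40.5, 60.6 and 85.5 in lung and at most 32.0 elsewhere. None of the 4 overlapped with another tissue, as for 1.3% of all genes tested. Just inside the log2 limit of 1 stood HAVCR2 (1.003) and DAGLB (1.004), and just outside it TMEM100 (0.9996) and NEDD9 (0.996). In the RefSeq annotation of Sscrofa11.1, direct neighbours among the lung-higher genes included DUOXA1 with DUOXA2, DUOXA2 with DUOX2, BPIFA1 with BPIFB1 and RGS4 with CCDC190.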
